A study of Oryza sativa with 12 samples.

Results

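The 44 rice genes described here were selected because their leaf mRNA level was highest in salt-treated IL22 plants. A gene was taken where its lowest level in the 3 libraries of salt-treated IL22 was 1 CPM or more (CPM, counts scaled to a common library total) and at least 1.5 times its highest level in the other 9 libraries. The 44 genes are 0.119% of the 36844 features of the count table. The levels of salt-treated IL22 chose the genes, so the differences between those libraries and the others are given as a description, without a test.

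IL22 is a single introgression line of rice (*Oryza sativa*). It carries chromosome segments of the salt-tolerant *indica* line FL478 in the salt-sensitive *japonica* cultivar OLESA. It was selected by markers for the *Saltol* locus of chromosome 1, and then for its good performance under salt in hydroponics. Seedlings were pregerminated for 7 days and grown in hydroponics for another 7 days. The groups were IL22 after 24 h in nutrient solution with 80 mM NaCl (IL22 salt), IL22 in the same solution without added NaCl (IL22 control), OLESA after 24 h with 80 mM NaCl (OLESA salt) and OLESA without added NaCl (OLESA control). Each of the 4 groups had 3 replicates, each made of leaves of 4 plants. Libraries of the parent bear the label PL12, which was read as OLESA because no other parent was sequenced. IL22 is compared here as 1 line, so its difference from OLESA cannot be assigned to any single segment.

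High salinity lowers the water potential around the root, and sodium that reaches the leaf competes with potassium in the cell. Leaves respond to both, partly through abscisic acid, with changes in the mRNA of transporters, of enzymes that make compatible solutes or remove reactive oxygen species, and of photosynthesis genes. *Saltol* is known for its effect on the balance of sodium and potassium in the shoot of rice seedlings. The files list genes by locus ID alone and none of the 44 IDs matched the gene reference at hand, so neither names nor functions are given. For the same reason, leaf marker genes could not be checked. Genes are referred to by their rank in the selection ratio, that is, the lowest CPM in IL22 salt over the highest CPM elsewhere, and by the chromosome number in their ID.

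Total counts were 11505396 to 19141122 per library in IL22 salt, 12861373 to 20034664 in IL22 control, 12163349 to 20541526 for salt-treated OLESA and 14594645 to 23578477 for untreated OLESA. Pearson correlations of log CPM across genes were 0.974 to 0.981 within IL22 salt, 0.937 to 0.966 within IL22 control, 0.95 to 0.954 within OLESA salt and, for OLESA control, 0.960 to 0.977 within OLESA control. Replicate 1 of IL22 control stood apart from its group. It correlated at 0.942 and 0.937 with replicates 2 and 3, which correlated at 0.966 with each other, and at 0.965 with replicate 2 of OLESA control. Among the 44 genes, this library was the highest of its group in 14 and the lowest in 15. In leaf samples, a change in mRNA per cell and a change in the share of a cell type cannot be told apart.

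Most of the 44 genes passed the rule by a small margin. The selection ratio was 2 or more in 9 genes and from 1.5 to under 2 in 35. Just inside the limit, the ratios were 1.501, 1.511 and 1.526, and just outside it they were 1.496, 1.481 and 1.479. The gene nearest inside had a lowest CPM of 5.04 in IL22 salt and a highest CPM of 3.36 elsewhere, and the one nearest outside had 93.9 and 62.7 CPM. In all, 17944 features had at least 1 CPM in every IL22 salt library, and 748 of them had a ratio of 1 or more. The same rule applied to each other group, an alternative added after the data were seen, took 14 genes for IL22 control, 40 for OLESA salt and 9 for OLESA control. By this rule, genes highest in a salt-treated group outnumbered those highest in a control group in both genotypes.

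**Figure D1:**
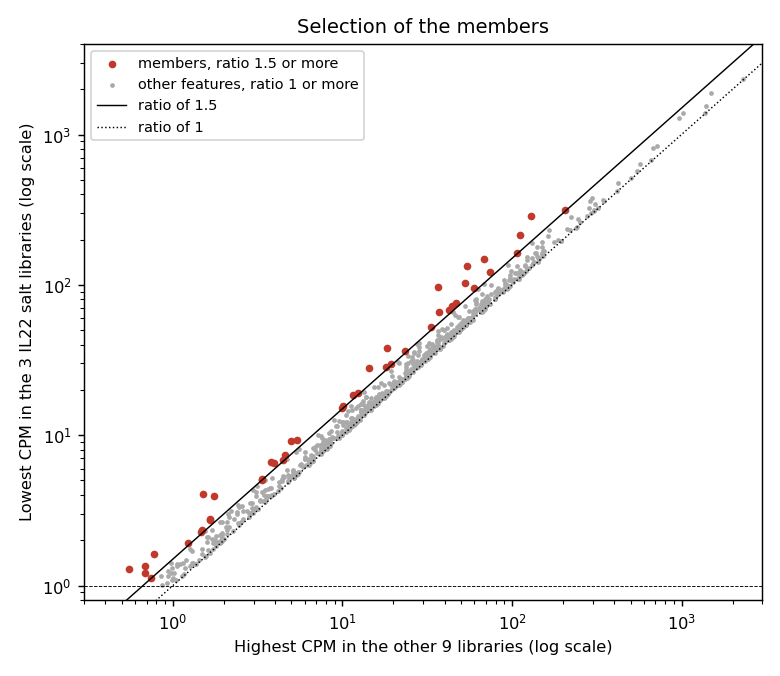
Lowest CPM in the 3 IL22 salt libraries (vertical log axis) against the highest CPM in the other 9 libraries (horizontal log axis) for the 748 features with a ratio of 1 or more, the 44 selected genes in red. The selected genes lie above the solid line of 1.5, 35 of them below a ratio of 2.

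The scaling of the libraries decided which genes near the limit were taken. The scaling factors of the trimmed mean of M-values (TMM) were 1.051 to 1.115 in IL22 salt, 0.947 to 1.024 in IL22 control, 0.976 to 1.093 for salt-treated OLESA and 0.845 to 0.975 for untreated OLESA. With CPM scaled by them the rule took 25 features, 24 of them among the 44 genes, and the ratios of the 44 genes then ran from 1.19 to 2.66. On that scale the same rule took 14 genes for IL22 control, 47 for OLESA salt and 14 for OLESA control, so the number for OLESA salt then exceeded that for IL22 salt. The other 20 genes passed the rule on the scale of column totals and did not pass it with TMM. Single libraries mattered as well. The rule took 71 genes without replicate 2 of IL22 salt, 90 without replicate 3 of IL22 salt and 107 without replicate 3 of OLESA salt.

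The 44 genes covered a wide range of levels. Mean CPM in IL22 salt ran from 1.36 to 362 with a median of 19.1. It was under 10 in 17 genes, from 10 to under 100 in 17 and 100 or more in 10. The median over the 44 genes was 5.92 CPM in IL22 control, 8.67 CPM in OLESA salt and 5.76 CPM in OLESA control. The summed CPM of the 44 genes was 2452 to 3014 in IL22 salt, 633.8 to 755.4 in IL22 control, 826.3 to 1072 for salt-treated OLESA and 693.4 to 833.2 for untreated OLESA. The 6 genes with the highest mean in IL22 salt made up 55.5% of the sum in that group. Without them the sums were 1200 to 1270 CPM in IL22 salt, 333 to 416 CPM in IL22 control, 389 to 481 CPM in OLESA salt and 349 to 391 CPM in OLESA control.

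**Figure D2:**
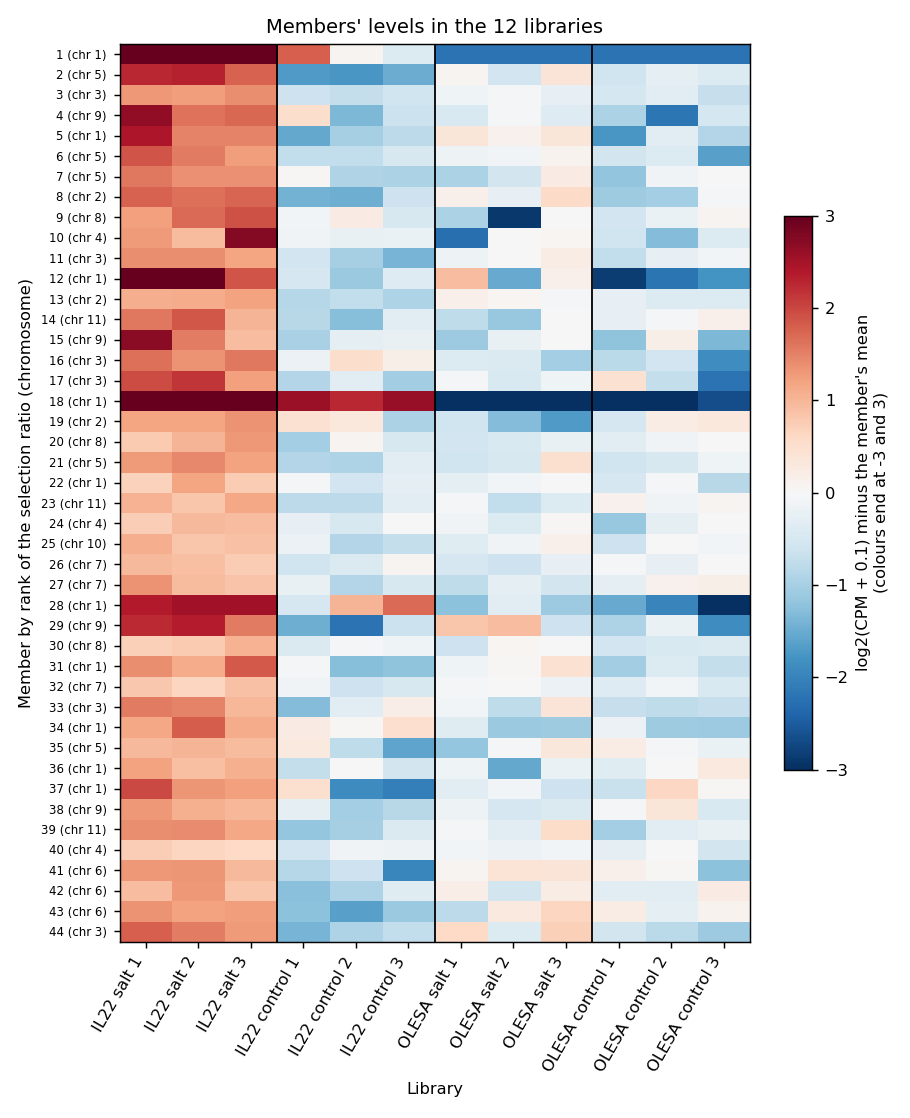
Log2(CPM + 0.1) of each of the 44 genes (rows, in order of the selection ratio) in the 12 libraries (columns, IL22 salt, IL22 control, OLESA salt and OLESA control from the left), minus the gene's own mean over the libraries, with the colour range given on the scale bar. The 3 IL22 salt columns are the highest in every row, as the rule requires, and the 9 other columns differ in their order from gene to gene.

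Relative to the other group means, most genes were at least 2-fold higher in salt-treated IL22. The median fold of IL22 salt over IL22 control was 3.92, with a range of 1.91 to 15.3, and 19 genes exceeded 4-fold. Over OLESA salt the median fold was 2.83, with a range of 1.71 to 9.95 in the 42 genes with more than 3 counts in that group. Over OLESA control it was 3.36, with a range of 1.90 to 46.4 in the 42 genes with more than 3 counts there. The medians were the same when genes without a count were set to the bound given by 3 counts over the group. The fold was 2 or more over IL22 control in 43 genes, over OLESA salt in 42, over OLESA control in 41 and over every other group mean in 40. OLESA salt was thus the nearest group by median fold.

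The most abundant genes of the set in IL22 salt were those of ranks 6 and 39. Rank 6, on chromosome 5, had 444, 355 and 288 CPM in IL22 salt, against 72.3, 72.5 and 86.6 CPM in IL22 control. It had 108, 115 and 130 CPM in OLESA salt, against 82.5, 90.2 and 38.8 CPM in OLESA control. In both genotypes the salt libraries lay above the control libraries, by 4.69-fold between the means in IL22. Rank 39, on chromosome 11, had 364, 371 and 313 CPM in IL22 salt and 62.5, 70 and 103 CPM in IL22 control. Its levels were 135, 112 and 204 CPM in OLESA salt and 68.5, 111 and 119 CPM in OLESA control, and the value of 204 in OLESA salt replicate 3 placed it near the limit of the rule. The ranges of OLESA salt and OLESA control overlapped for this gene.

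Next in the same range of levels, the genes of ranks 3, 13 and 7 had close replicates in IL22 salt. Rank 3, on chromosome 3, had 140, 134 and 148 CPM in IL22 salt and 36.6, 34.5 and 37.3 CPM in IL22 control. In OLESA it had 51.6, 54.3 and 47.7 CPM with salt and 38.9, 44.5 and 34.9 CPM without. The salt libraries exceeded the control libraries in both genotypes, by 3.90-fold between the IL22 means, and IL22 salt exceeded OLESA salt by 2.75-fold. Rank 13, on chromosome 2, had 214, 219 and 233 CPM in IL22 salt and 55.0, 60.6 and 52.9 CPM in IL22 control. It had 111, 105 and 97.0 CPM in OLESA salt and 84.8, 75.2 and 75.5 CPM in OLESA control. Its groups did not overlap, and IL22 control was the lowest of them. Rank 7, on chromosome 5, averaged 157 ± 14.3 CPM in IL22 salt, 39.7 ± 16.7 CPM in IL22 control, 45.7 ± 20.1 CPM in OLESA salt and 45.4 ± 17.6 CPM in OLESA control (SD, n = 3 each), so that only IL22 salt stood apart.

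Agreement among the 3 IL22 salt replicates varied with the gene. The highest of the 3 values over the lowest was 1.34 in the median gene, under 1.5 in 29 genes and 2 or more in 5. Replicate 3 was the lowest of the 3 in 24 genes, replicate 2 in 12 and replicate 1 in 8. The ratio reached 3.66 in the gene of rank 10, on chromosome 4, with 1.72, 1.35 and 4.95 CPM in IL22 salt. Of the 5 genes with such a spread, 4 had a mean under 10 CPM in IL22 salt, and the other was Os01g0124650. Counts in an IL22 salt library ran from 13 to 8492 over the 44 genes, and 12 genes had fewer than 50 in at least 1 of these libraries.

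Outside salt-treated IL22, the highest library was most often one of salt-treated OLESA. Of the 44 genes, 24 had their highest other CPM in OLESA salt, 10 in IL22 control and 10 in OLESA control. Replicate 3 of OLESA salt alone was the highest in 17 genes, against 5 for replicate 2 and 2 for replicate 1. These counts are on the scale of column totals. The TMM factor was 1.093 for replicate 3, 0.976 for replicate 2 and 0.992 for replicate 1, and its part in this order was not tested. By group means, OLESA salt was the highest of the other groups in 26 genes, IL22 control in 9 and OLESA control in 9. IL22 control had the lowest mean in 24 genes, OLESA salt in 9 and OLESA control in 11. The order with OLESA salt highest and IL22 control lowest held in 19 genes. In 17 genes, the ranges of the other 3 groups all overlapped each other. None of these counts was made over all tested features, so nothing is read from them about the set.

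Whether salt changed these genes in OLESA, and whether they differed between IL22 and OLESA without salt, can be tested without the libraries of salt-treated IL22 as one side of the contrast. The rule still bears on these tests, because it caps the 9 other libraries from above. Both comparisons share the OLESA control libraries, so their values are given side by side and were not overlapped. All 44 genes were among the 20760 features that passed the filter on low counts, 39 of them also without the IL22 salt libraries. The other 5, of ranks 1, 4, 10, 15 and 41, passed through the group that selected them, and none of them was called in either comparison. Calls required an adjusted p of at most 0.05 and an absolute log2 fold change (FC) above 0.5.

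In OLESA, 2 of the 44 genes changed with salt by edgeR's quasi-likelihood test. These 2 rose (4.55%), against 11.7% of all tested features, and 0 fell, against 9.89% of all tested features. In a fit of the 9 libraries without IL22 salt, added after the data were seen, 1 of the 39 genes was called, against 14.1% of the features. At an unadjusted p of 0.05 with the same FC limit, 7 genes were higher and 4 lower in OLESA salt, against 17.4% and 15.4% of all tested features. DESeq2 called 2 genes higher and 4 lower, against 26.8% of all tested features in either direction, and edgeR with upper-quartile factors 2 higher and 3 lower, against 21.9%. The call of the 2 genes rests on single libraries, as 0 genes passed once OLESA control replicate 2 was left out, against 9.05% of all tested features. With OLESA salt replicate 1 left out the test called 2 other genes, both lower, against 14.1% of the features. With OLESA control replicate 1 left out it called 1 other gene, also lower, against 19.9%. All 3 OLESA salt libraries lay above all 3 OLESA control libraries in 9 genes, against 25.1% of all tested features, and below them in 3 genes, against 13.7%. Each share of the 44 genes in the comparison as designed was below that of all tested features. That difference was not tested, and because the rule caps the OLESA salt libraries and 5 genes passed the filter through IL22 salt, nothing is read from it. The median log2 FC was 0.16 over the 42 genes with more than 3 counts in OLESA salt or OLESA control, with 26 positive and 16 negative values, and 0.01 over all tested features. The values ran from -1.49 to 2.23.

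Os01g0124650, of rank 12 on chromosome 1, rose with salt in OLESA. It had 347, 360 and 102 CPM in IL22 salt, against 19.4, 12.7 and 20.8 CPM in IL22 control. It had 52.6, 9.54 and 30.6 CPM in OLESA salt, against 3.72, 5.89 and 7.85 CPM in OLESA control. Salt libraries exceeded control libraries in both genotypes without overlap, and all IL22 control libraries exceeded all OLESA control libraries. Replicate 3 of IL22 salt had less than the other replicates of its group, and the OLESA salt replicates were spread more widely still. The log2 FC of OLESA salt over OLESA control was 2.23 ± 0.58 (SE), with an adjusted p of 0.0176 by edgeR's quasi-likelihood test. Leaving out OLESA salt replicate 1 gave an adjusted p of 0.0743. It was 0.0524 when OLESA control replicate 1 was left out and 0.0649 when replicate 2 of that group was. Of 14 alternatives, those with an adjusted p ranged from 0.00466 to 0.0743. Its log2 FC of IL22 control over OLESA control was 1.48 ± 0.57 (SE), with an adjusted p of 0.198 by edgeR's quasi-likelihood test.

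The other gene called in OLESA salt was that of rank 44, on chromosome 3, the nearest of all to the limit of the rule. It had 7.21, 6.02 and 5.04 CPM in IL22 salt and 0.699, 1.01 and 1.17 CPM in IL22 control. In OLESA it had 3.11, 1.48 and 3.36 CPM with salt and 1.33, 1.10 and 0.891 CPM without. The salt libraries lay above the control libraries in both genotypes, and the log2 FC in OLESA was 1.13 ± 0.36 (SE) with an adjusted p of 0.0390 by edgeR's quasi-likelihood test. The call was lost in 9 of 14 alternatives, among them the fit of the 9 libraries without IL22 salt (adjusted p = 0.103) and leaving out any OLESA library other than salt replicate 2, and the adjusted p ran from 0.0184 to 0.120 over the alternatives. IL22 salt exceeded its own control by 6.34-fold between the means and OLESA salt by 2.30-fold.

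The largest positive log2 FC in OLESA salt that did not pass the test were those of ranks 29, 28 and 5. Rank 29, on chromosome 9, had 3.81, 4.13 and 2.35 CPM in IL22 salt and 0.200, 0.0778 and 0.432 CPM in IL22 control. It had 1.36, 1.48 and 0.438 CPM in OLESA salt and 0.332, 0.617 and 0.127 CPM in OLESA control. The OLESA groups overlapped, and the log2 FC of 1.53 ± 0.67 (SE) had an adjusted p of 0.115 by edgeR's quasi-likelihood test. Rank 5, on chromosome 1, had 7.68, 3.92 and 3.91 CPM in IL22 salt and 0.399, 0.622 and 0.740 CPM in IL22 control. It had 1.75, 1.48 and 1.75 CPM in OLESA salt and 0.332, 1.03 and 0.679 CPM in OLESA control. Here the OLESA groups did not overlap, with a log2 FC of 1.14 ± 0.45 (SE) and an adjusted p of 0.0853 by edgeR's quasi-likelihood test.

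**Figure D3:**
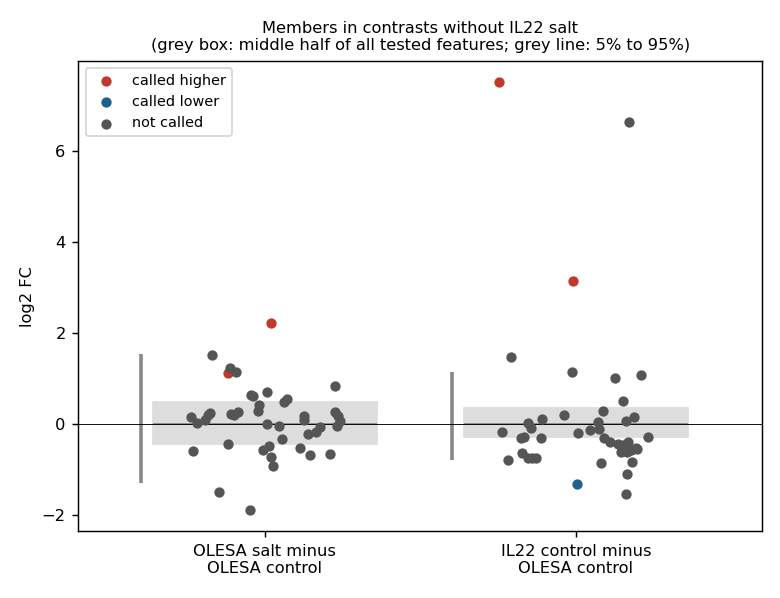
Log2 FC of the 44 genes in the contrasts OLESA salt over OLESA control and IL22 control over OLESA control, 1 point per gene, coloured by the call of edgeR's quasi-likelihood test. Grey boxes span the 25th to 75th and grey lines the 5th to 95th percentile of all tested features. In OLESA salt 2 genes are called higher, and between IL22 and OLESA without salt 2 are called higher and 1 lower. Uncalled points of IL22 control over OLESA control run from -1.52 to 6.63. The highest of them is rank 1, which has no count in OLESA and passed the filter through IL22 salt.

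Without salt, 3 of the 44 genes differed between IL22 and OLESA by edgeR's quasi-likelihood test. In IL22 control 2 genes were higher (4.55%), against 0.621% of all tested features, and 1 was lower (2.27%), against 0.756%. The rule set IL22 salt above every OLESA control library and capped the IL22 control libraries. These shares were not compared by a test, and nothing is read from them about the set. At an unadjusted p of 0.05, 6 genes were higher in IL22 control, against 9.93% of all tested features, and 9 were lower, against 5.68%. The IL22 control libraries lay above all OLESA control libraries in 7 genes, against 11.2% of all tested features, and below them in 6 genes, against 4.69%. The 6 genes higher at an unadjusted p include rank 1, and the 7 genes include ranks 1 and 10. Both ranks passed the filter through IL22 salt, so nothing is read from these counts. The median log2 FC was -0.28, with 15 positive and 29 negative values, and 0.01 over all tested features. Positive values made up 34.1% of the 44 genes and 51.2% of all tested features, a difference that was not tested. The median and these shares include the 5 genes that passed the filter through IL22 salt, among them rank 1, without a count in OLESA. The rule also caps the IL22 control libraries, so nothing is read from them. Without replicate 1 of IL22 control, the library that stood apart, 11 of the 44 genes were called, 4 higher and 7 lower, and 18.9% of all tested features were called in either direction.

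Os05g0355400, of rank 2 on chromosome 5, was lower in IL22 than in OLESA without salt. It had 135, 139 and 96.0 CPM in IL22 salt, against 8.59, 8.32 and 9.93 CPM in IL22 control. It had 29.5, 18.7 and 36.6 CPM in OLESA salt, against 18.5, 23.0 and 21.2 CPM in OLESA control. All IL22 control libraries were below all OLESA libraries, and the OLESA salt and control ranges overlapped. The log2 FC of IL22 control over OLESA control was -1.31 ± 0.23 (SE), with an adjusted p of 0.00901 by edgeR's quasi-likelihood test. Without IL22 control replicate 2 the adjusted p was 0.0626. Of 14 alternatives, those with an adjusted p ranged from 1.75e-05 to 0.0626. The mean in IL22 salt was 13.8-fold that in IL22 control and 4.36-fold that in OLESA salt. The log2 FC of OLESA salt over OLESA control was 0.28 ± 0.22 (SE), with an adjusted p of 0.375 by edgeR's quasi-likelihood test.

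Os01g0114100, of rank 18 on chromosome 1, was counted almost only in IL22. It had 15.9, 9.27 and 9.65 CPM in IL22 salt and 5.29, 4.20 and 5.36 CPM in IL22 control. It had 0 counts in all 3 OLESA salt libraries and 1 count, in replicate 3, over the OLESA control libraries. All IL22 libraries exceeded all OLESA libraries, with the salt libraries of IL22 above its control libraries. IL22 salt was at least 195-fold higher than OLESA salt, taken against a floor of 3 counts in that group. IL22 control had 247 counts and OLESA control 1, a ratio of 268 with a 95% exact binomial interval of 47.6 to 10600 that covers counting error only. The fitted log2 FC of IL22 control over OLESA control was 7.50 ± 0.59 (SE) with an adjusted p of 3.08e-05 by edgeR's quasi-likelihood test, a size that depends on the prior count. All 14 alternatives called it, 1 of them by the unadjusted p, where a call cannot be lost. The others gave adjusted p from 3.76e-08 to 0.000788.

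The gene of rank 1, on chromosome 1, had no count in any of the 6 OLESA libraries. It had 6.43, 13.4 and 4.09 CPM in IL22 salt and 1.5, 0.389 and 0.247 CPM in IL22 control. IL22 salt was at least 134-fold higher than OLESA salt and IL22 control at least 12.6-fold higher than OLESA control, each taken against a floor of 3 counts in the OLESA group. This gene did not pass the filter on low counts without the IL22 salt libraries, so no test is given for it. The 39 counts behind the IL22 control mean came mostly from replicate 1, the library that stood apart from its group, with 30 counts. The genes of ranks 1 and 18 thus met the rule by their levels within IL22 alone, salt against control, since OLESA gave almost no counts.

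**Figure D4:**
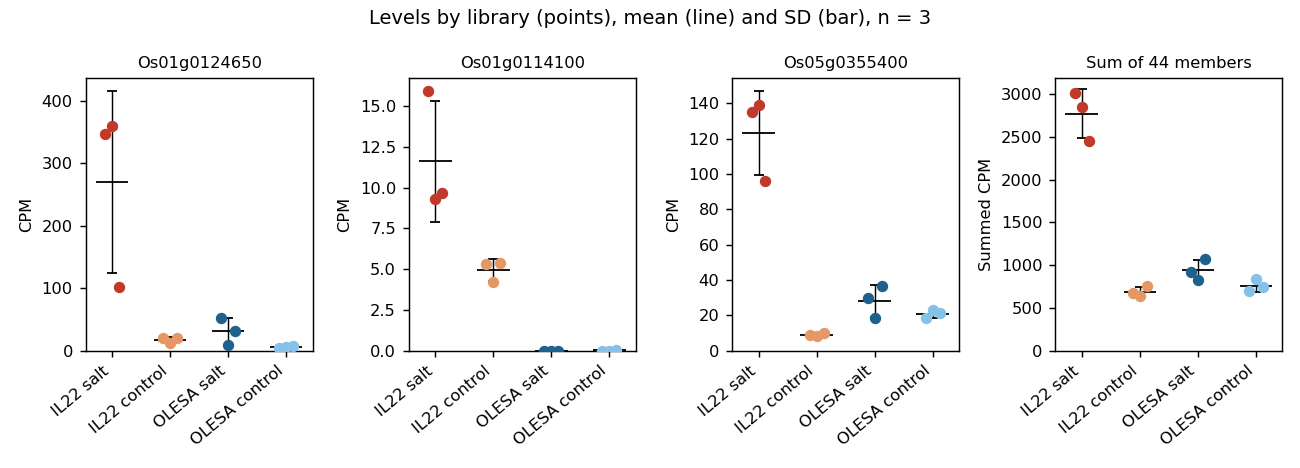
CPM of Os01g0124650, Os01g0114100 and Os05g0355400 in each library (points), and the summed CPM of the 44 genes, with the group mean (line) and SD (bar, n = 3), in the order IL22 salt, IL22 control, OLESA salt and OLESA control. IL22 salt is the highest group in each gene, Os01g0114100 is near 0 in both OLESA groups, and Os05g0355400 is lowest in IL22 control.

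Rank 28, on chromosome 1, was the other gene called higher in IL22 without salt. It had 95.4, 106 and 106 CPM in IL22 salt and 12.8, 37.3 and 59.9 CPM in IL22 control. It had 7.79, 14.7 and 8.47 CPM in OLESA salt and 6.37, 4.59 and 1.48 CPM in OLESA control. The IL22 control replicates were spread far more widely than those of IL22 salt, and replicate 1 was the lowest. The log2 FC of IL22 control over OLESA control was 3.14 ± 0.55 (SE), with an adjusted p of 0.00940 by edgeR's quasi-likelihood test. That call was lost in a fit of the 6 libraries alone (adjusted p = 0.0855) and when OLESA control replicate 2 was left out (adjusted p = 0.0538), the 2 losses in 14 alternatives, with adjusted p from 1.72e-07 to 0.0855. Its log2 FC of OLESA salt over OLESA control was 1.24 ± 0.54 (SE), with an adjusted p of 0.112 by edgeR's quasi-likelihood test and groups that did not overlap. Rank 16, on chromosome 3, had 81.2, 66.2 and 77.1 CPM in IL22 salt and 22.9, 37.3 and 29.0 CPM in IL22 control. It had 19.5, 19.0 and 12.6 CPM in OLESA salt and 14.7, 17.3 and 7.00 CPM in OLESA control, so that all IL22 libraries exceeded all OLESA libraries. Its log2 FC without salt was 1.15 ± 0.29 (SE), with an adjusted p of 0.0763 by edgeR's quasi-likelihood test.

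The selected genes were spread over 11 of the 12 chromosomes. Chromosome 1 held 10 of them (22.7%), against 14.6% of the tested features with a locus ID. Chromosome 3 held 6, chromosome 5 held 5, chromosome 9 held 4, chromosome 10 held 1 and chromosome 12 held 0, and each of the others held 3. To find where IL22 differed from OLESA without salt along the chromosomes, tested features were taken in ID order in windows of 50, and a window was marked where 5 or more features were called with a log2 FC beyond 1 between IL22 control and OLESA control. There were 15 such windows, 13 on chromosome 1 and 2 on chromosome 3. They held 3.63% of the 20679 features with a position in this order and 5 of the 44 genes (11.4%), 4 on chromosome 1 (ranks 1, 12, 18 and 28) and 1 on chromosome 3 (rank 16). With windows of 25 features and a minimum of 3 calls, 6 of the 44 genes lay in marked windows, against 3.75% of the features. The 44 genes include 5 that passed the filter through IL22 salt, rank 1 among them. The rule also set IL22 salt above every OLESA library, so nothing is read from the shares by chromosome or window.

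Genes inside and outside marked windows are given apart. Within marked windows, the log2 FC of IL22 control over OLESA control was 7.50, 3.14, 1.48 and 1.15 for ranks 18, 28, 12 and 16. The first 2 of these were called higher. Rank 1 is left out, because it passed the filter through IL22 salt. Outside marked windows the median was -0.31, with 0 called higher and 1 lower by edgeR's quasi-likelihood test. Ranks 4, 10, 15 and 41, which also passed the filter through IL22 salt, are part of that median. The windows were marked by that same contrast, so this is a description. Within marked windows, the log2 FC of OLESA salt over OLESA control was 2.23, 1.24 and 0.29 for ranks 12, 28 and 16. Ranks 1 and 18 had almost no counts in OLESA and are left out. Outside marked windows the median was 0.10, and ranks 4, 10, 15 and 41 are part of this median too. Thus 39 of the 44 genes lay outside the windows where IL22 and OLESA differed most without salt. The share inside was 11.4%, against 3.63% of the features in ID order, and the difference was not tested. The closest neighbours among the 44 genes were those of ranks 28 and 12 on chromosome 1, 3 steps apart in ID order, and the next pair was 28 steps apart. The windows mark differences in level, and the *indica* segments themselves were not mapped here. Counts from *indica* segments were taken on *japonica* gene models, and the part of sequence differences in the levels of the 44 genes was not tested.

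**Figure D5:**
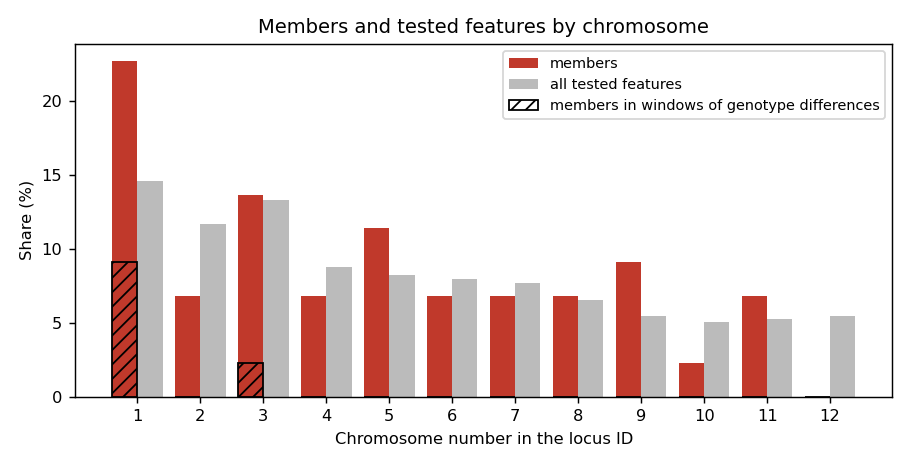
Share in percent of the 44 genes (red) and of all tested features (grey) on each chromosome, with hatching for the genes in windows marked by differences between IL22 control and OLESA control. Chromosome 1 holds 22.7% of the genes and 14.6% of the tested features, and chromosome 12 holds 0 genes.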

How the data were processed

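Leaf RNA-Seq counts of 12 libraries were used, 3 for each of IL22 and OLESA with and without salt. The authors deposited raw fragment counts per gene. Per the study's methods and the submitters' processing notes, stranded reads were demultiplexed with bcl2fastq 2.20, masked with cutadapt 1.11, trimmed, aligned with STAR 2.5.2b and counted with featureCounts 1.5.1 on IRGSP-1.0. How fragments matching several genes were treated is not stated in what was read here, and values of near-identical gene copies are uncertain. Of 36844 features, 6937 had no count. The 44 genes were selected on CPM from column totals. The members, gene lists and tests were chosen with earlier results of these data known.

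Counts were tested in R 4.3.3 with edgeR 4.0.16 (filterByExpr with a minimum count of 10 and a minimum total of 15, TMM, quasi-likelihood fit of 1 mean per group over all 12 libraries, Benjamini-Hochberg adjustment over 20760 features). The steps were tested on simulated data. Standard errors were derived from the F statistic. The contrasts of IL22 salt were used by the rule and were not tested. P-values measure the spread between replicates of 4 plants each, and no batch is named in the labels. Alternatives tried were DESeq2 1.42.0, RLE and upper-quartile factors, no filter, other fits, a block of replicate number, other limits of the rule and leaving out each library. The unadjusted p is also counted among the alternatives of single genes. It cannot lose a call and is left out of their ranges of adjusted p.

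The gene reference at hand is of another assembly and matched 1 of the 36844 IDs and 0 of the 44 genes. Planned counts by function, leaf marker genes and promoter motifs were not analysed here. The planned naming rule took the genes of largest ratio, largest level and smallest adjusted p. Without names, 3 IDs were printed: per tested contrast, the called gene of smallest adjusted p in each direction. That narrower choice came after seeing the values. The other genes are given by rank and chromosome, some of them chosen for description after their values were seen.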

Additional observations from a re-analysis of the deposited data

Results flagged for a closer look

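In 3 genes, every OLESA salt library lay below every OLESA control library, the opposite direction to IL22, where every salt library lay above every control library. The gene of rank 19, on chromosome 2, had 2.77, 2.77 and 3.13 CPM in IL22 salt and 1.65, 1.48 and 0.555 CPM in IL22 control, and 0.734, 0.411 and 0.292 CPM in OLESA salt and 0.796, 1.37 and 1.48 CPM in OLESA control. Rank 26, on chromosome 7, had 87.0, 83.4 and 76.0 CPM in IL22 salt and 29.2, 32.9 and 47.0 CPM in IL22 control, and 31.1, 28.7 and 37.2 CPM in OLESA salt and 43.1, 37.7 and 44 CPM in OLESA control. Rank 27, also on chromosome 7, had 10.6, 7.92 and 7.39 CPM in IL22 salt and 3.49, 2.18 and 2.90 CPM in IL22 control, and 2.37, 3.29 and 2.73 CPM in OLESA salt and 3.38, 4.45 and 4.58 CPM in OLESA control. The difference between the genotypes was not tested, because the rule fixes the direction in IL22. In OLESA alone, the adjusted p of the decrease was 0.0555, 0.0722 and 0.0768 for ranks 19, 26 and 27 by edgeR's quasi-likelihood test. The 3 genes are 6.82% of the 44, and 13.7% of all tested features had all OLESA salt libraries below all OLESA control libraries. Nothing is read from this count about the set.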

How the results depend on the processing

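The number of selected genes was 44 as reported. It was 25 with CPM scaled by TMM, 144 with a smaller ratio than 1.5, 9 with a ratio of 2, and 45 to 107 when each library was left out in turn. Leaving out a library can only add genes to the rule, so all 44 stayed in each of those sets. Genes called in OLESA salt, with the share of all tested features called in either direction, were 2 as reported (21.6%), 5 with upper-quartile factors (21.9%), 1 without a filter (15%), 1 with the replicate block (16.6%), 11 at an unadjusted p (32.9%), 1 in a fit of the 6 libraries alone (21.1%), 1 in a fit of the 9 libraries without IL22 salt (14.1%), 6 with DESeq2 (26.8%) and 0 to 2 when each library was left out (9.05% to 19.9%). Genes called between IL22 and OLESA without salt were 3 as reported (1.38%), 5 without a filter (1.76%), 15 at an unadjusted p (15.6%), 2 in a fit of the 6 libraries alone (0.794%), 9 with DESeq2 (5.45%) and 2 to 11 when each library was left out (0.741% to 18.9%). The replicate block left these at 3 (0.939%). The 15 at an unadjusted p include rank 1, which passed the filter through IL22 salt. Deviations of log CPM from the group mean were correlated between replicates of the same number. They correlated at 0.12, -0.05 and 0.20 between OLESA salt and OLESA control. Between IL22 control and OLESA control the values were -0.33, -0.20 and -0.05. Whether the numbers pair the samples was not tested. The motif search by strand was not run. With 3 replicates per group, no library was tested as an outlier.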
